A study of Mus musculus with 12 samples.

Results

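C-type lectin genes were followed through 5 populations of mouse dendritic cells (DCs) and their progenitors. The genes are those whose annotated symbol begins with Clec or Cd209 followed by a letter or digit, taken from probe sets that list exactly 1 symbol. There were 37 such genes, 31 Clec and 6 Cd209, among 22180 genes measured in the series. RNA was measured on 12 Affymetrix whole-transcript arrays as log2 expression per probe set, and a gene with several probe sets was represented by the one with the highest mean. All cells came from C57Bl/6 mice labelled N8 Zbtb46GFP/+, littermates that carry a GFP reporter at Zbtb46 (a transcription factor of classical DCs) and that were analysed at steady state. Splenocytes gave the CD24 DCs (n = 3), sorted as CD11c and CD24 positive and CD172a negative, and CD172a DCs (n = 2), which carried CD172a, CD11c and MHC class II. Bone marrow gave the pre-CD8 progenitor (n = 2), the pre-CD4 progenitor (n = 2) and the common DC progenitor (CDP, n = 3), all of them lineage-negative and CD135 positive. Pre-CD8 cells were intermediate for CD117 and MHC class II, CD11c positive and Siglec H negative. Pre-CD4 cells were low for CD117, lacked MHC class II and carried CD115 and CD11c. CDPs were CD117 intermediate, CD115 positive and negative for CD11c and MHC class II. The CD24 lineage is commonly named cDC1 and the CD172a lineage cDC2. The labels give no age, and they do not say whether arrays of a population came from separate mice or pools, so the p-values rest on the spread between arrays alone, and that spread may be technical.

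C-type lectin receptors carry a fold that in many of them binds sugars, and in others binds proteins or lipids. Myeloid cells use them to recognise fungi, mycobacteria and dying cells and to take up antigen. Activating receptors signal through an ITAM-type motif of their own or through the partner chains Fc receptor gamma (Fcer1g) and DAP12 (Tyrobp) to the kinase Syk and the adaptor Card9, whereas inhibitory receptors carry an ITIM that recruits phosphatases. Several of these genes are standard markers that separate the DC lineages. Clec9a (the cDC1 receptor for exposed actin filaments) and Cd209f were not analysed here, as their probe sets list a second lectin gene (Clec1b and Cd209g). The Clec4a genes and the Cd209 genes are each sets of near-identical copies, so a signal assigned to a copy may come partly from another, and each of their values below is uncertain in that respect.

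Array means lay between 5.28 and 5.34 and medians between 4.89 and 5.24 on the log2 scale, and the interquartile range ran from 2.10 to 2.86. Arrays of a population correlated at r = 0.934 to 0.989 over all genes (9 pairs) and arrays of different populations at r = 0.843 to 0.975 (57 pairs). The 2 pre-CD8 arrays were less alike (r = 0.968) than same-numbered arrays of pre-CD8 and pre-CD4 (r = 0.972 and 0.975). The sort was checked on transcripts. Sirpa, the gene of CD172a, stood at 5.85 in CD24 DC and 9.35 in CD172a DC, and Itgax, the gene of CD11c, at 7.97 in pre-CD8, 9.60 in pre-CD4 and 6.07 in CDP. Cd24a stood at 11.61 in CD24 DC, 10.34 in CD172a DC and, highest, 12.13 in pre-CD8. Kit, the gene of CD117, was 9.04 in pre-CD8, 5.95 in pre-CD4 and 8.24 in CDP, but higher in CD24 DC (9.71) and CD172a DC (9.70). The MHC class II gene H2-Ab1 reached 12.19 in CD24 DC although the label gives that gate as MHC class II negative, and at 9.18 in pre-CD4 (SD 1.44, n = 2), also gated negative, against 6.59 in CDP. Mean levels of 10 cDC1 markers were 9.86 to 10.22 on CD24 DC arrays, 7.04 and 7.30 on CD172a DC, 8.51 and 9.22 on pre-CD8, 6.35 and 6.18 on pre-CD4 and 5.74 to 5.97 on CDP arrays. Those of 10 cDC2 markers were 5.88 to 5.94, 7.60 and 7.93, 5.92 and 6.30, 6.56 and 6.87, and 5.89 to 6.00 in the same order. No detection calls were used. As a rough guide to dim signal, the 95th percentile of 1390 olfactory and vomeronasal receptor genes was 5.07 to 5.56 by population. Of the 37 lectin genes, 16 had no population mean above it, 9 were above it in all 5 populations and 12 in some, but probe sets differ in response and this is no detection call. The heat map of all members shows these as dark rows beside the few genes that are bright in a single population.

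**Figure D1:**
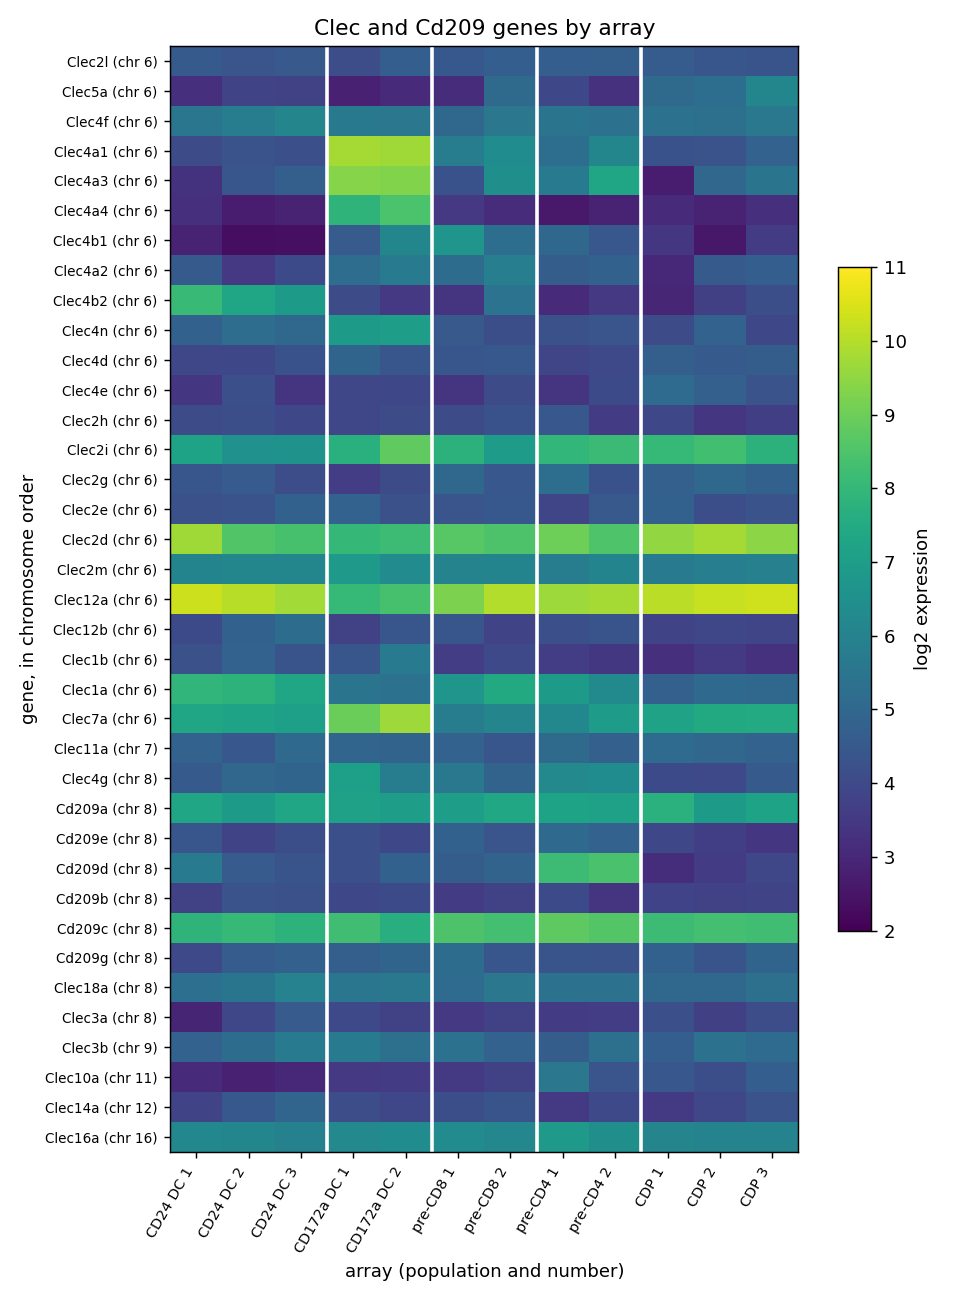
Log2 expression (colour) of the 37 Clec and Cd209 genes (rows, in chromosome order, chromosome 6 first) on the 12 arrays (columns, grouped by population). Clec4a1, Clec4a3 and Clec4a4 are bright on both CD172a DC arrays, Clec4b2 on the 3 CD24 DC arrays and Cd209d on both pre-CD4 arrays.

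Each difference is on the log2 scale and is given with its limma standard error (±), positive where the population named first is higher, and a gene was called at a Benjamini-Hochberg adjusted p under 0.05 over all 22180 genes. In the 6 comparisons of 2 populations, 18 of the 37 genes (48.6%) were called at least once, against 19.7% of all genes, which made 40 calls. The arrays of the 2 populations overlapped in none of these 40 calls and in none of the 7680 calls over all genes, so that says nothing about the lectin genes. The median standard error over all genes was 0.24 for 3 arrays against 2 and 0.27 for 2 against 2, so precision was set by the small number of arrays.

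The spleen populations differed most in a block of Clec4 genes. Clec4a1, Clec4a3 and Clec4a4 were lower in CD24 DC than in CD172a DC by more than 5 log2 units, and so to smaller degrees were the fungal receptor genes Clec7a and Clec4n, while Clec4b2, Clec1a and Clec12a were higher in CD24 DC. Of the 37 genes, 3 were higher and 8 lower in CD24 DC, against 3.21% higher and 2.37% lower (5.59% in all) among all genes tested. The median difference of the 37 genes was -0.10, and that of all genes -0.01. In bulk samples fewer cells that express a gene and less RNA per cell cannot be told apart.

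Among the DCIR genes, Clec4a4 encodes DCIR2, an ITIM receptor that marks the splenic cDC2 lineage. It stood at 3.23, 2.68 and 2.89 on the CD24 DC arrays, against 7.86 and 8.47 on the CD172a DC arrays. The difference was -5.23 ± 0.24 (adjusted p = 1.47e-07, limma). CD172a DC stood apart from all other populations in this gene, with pre-CD8 at 3.49 and 3.13, pre-CD4 at 2.62 and 2.87, and CDP at 3.08, 2.91 and 3.25. Clec4a1, another DCIR copy, stood at 4.09, 4.31 and 4.18 in CD24 DC, against 9.79 and 9.71 in CD172a DC. Its difference was -5.55 ± 0.28 (adjusted p = 1.88e-07). Clec4a3 stood at 3.31, 4.42 and 4.73 in CD24 DC, against 9.37 and 9.28 in CD172a DC, a difference of -5.17 ± 0.78 (adjusted p = 0.00124). The CD24 DC means of Clec4a1, Clec4a3 and Clec4a4 all lay below the level of the sensory receptor genes there (5.37), so no order of size is read among these differences. Within CDP (2.72, 4.97 and 5.45) and pre-CD8 (4.25 and 6.49) Clec4a3 scattered widely. Clec4a2, which encodes the ITIM receptor DCIR1, stood at 4.53, 3.49 and 4.03 in CD24 DC, against 5.23 and 5.67 in CD172a DC, and was not called (-1.43 ± 0.44, adjusted p = 0.0839). It was called under 4 of the alternatives, among them the fit without CDP array 1 (adjusted p = 0.0141).

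Of the receptor genes that signal through Fc receptor gamma, Clec4n encodes Dectin-2, a receptor for fungal mannans. Its values were 4.79, 5.21 and 5.06 in CD24 DC, against 6.90 and 7.0 in CD172a DC (-1.93 ± 0.26, adjusted p = 4.62e-04). Clec4b1 and Clec4b2 encode the immunoactivating relatives of DCIR, and these went opposite ways. Clec4b1 stood at 2.85, 2.33 and 2.38 in CD24 DC, against 4.59 and 6.13 in CD172a DC, a difference of -2.84 ± 0.47 (adjusted p = 0.00262). Both Clec4b1 means (2.52 and 5.36) lay below the level of the sensory receptor genes in these populations (5.37 and 5.56). Clec4b2 stood at 8.08, 7.30 and 6.92 in CD24 DC, against 4.09 and 3.49 in CD172a DC, a difference of 3.64 ± 0.52 (adjusted p = 8.16e-04). As in every call over all genes, no CD24 DC array overlapped a CD172a DC array in either gene, which adds nothing to these calls. Clec4d and Clec4e, the mycobacterial receptors MCL and Mincle, differed by -0.61 ± 0.21 and -0.28 ± 0.33 and were not called. In order along chromosome 6 in RefSeq GRCm38.p6, the members run Clec4a1, Clec4a3, Clec4a4, Clec4b1, Clec4a2, Clec4b2, Clec4n, Clec4d and Clec4e, so Clec4b2 lies between Clec4a2 and Clec4n, whose differences had the opposite sign, that of Clec4a2 without a call. The plot of these neighbours gives every array.

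**Figure D2:**
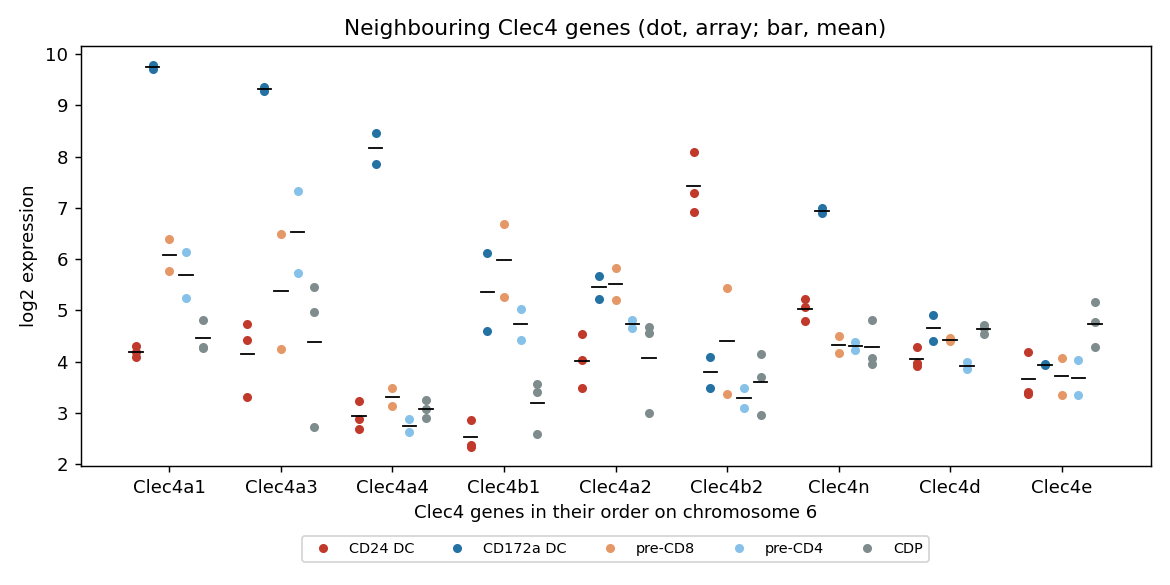
Log2 expression (vertical axis) of 9 neighbouring Clec4 genes in chromosome 6 order (horizontal axis); dots are arrays, coloured by population, and bars are means. CD172a DC stands highest at Clec4a1, Clec4a3, Clec4a4 and Clec4n and CD24 DC at Clec4b2, with Clec4d and Clec4e low in every population.

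The Dectin-1 group lies in the natural killer gene complex of the same chromosome. Clec7a, which encodes Dectin-1, the beta-glucan receptor that signals to Syk through its own motif, stood at 7.28, 7.23 and 7.08 in CD24 DC, against 8.97 and 9.67 in CD172a DC (-2.13 ± 0.26, adjusted p = 2.81e-04). Clec12a, an ITIM receptor gene that responds to crystals from dead cells, went the other way. It stood at 10.31, 10.04 and 9.76 in CD24 DC, against 8.02 and 8.40 in CD172a DC (1.83 ± 0.25, adjusted p = 5.70e-04). Clec1a, the gene of a receptor for fungal melanin, stood at 7.92, 7.82 and 7.33 in CD24 DC, against 5.46 and 5.35 in CD172a DC (2.28 ± 0.27, adjusted p = 2.06e-04). These 9 calls, of Clec4a1, Clec4a3, Clec4a4, Clec4b1, Clec4b2, Clec4n, Clec7a, Clec12a and Clec1a, held under every alternative in which the gene was tested.

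A further pair of calls rested on single arrays. Clec2i, which encodes a ligand of Nkrp1 receptors, stood at 7.24, 6.56 and 6.62 in CD24 DC, against 7.70 and 8.81 in CD172a DC (-1.45 ± 0.34, adjusted p = 0.0215). Its call ended without CD172a DC array 2 (-0.89, adjusted p = 0.262), CD24 DC array 2 (0.0756) or CD24 DC array 3 (0.0552). Clec4g, the gene of the liver and lymph node lectin LSECtin, stood at 4.56, 4.95 and 4.90 in CD24 DC, against 7.09 and 5.79 in CD172a DC (-1.64 ± 0.34, adjusted p = 0.0115). Without CD172a DC array 1 the difference was -0.99 (adjusted p = 0.212). Markers of monocytes and macrophages also differed between these populations. The mean level of the 14 measured was 6.41 to 6.63 on CD24 DC arrays and 7.20 on both CD172a DC arrays, with 11 of the 14 above the level of the sensory receptor genes in each. Adgre1 stood at 5.56 in CD24 DC against 9.31 in CD172a DC, Csf1r at 5.69 against 8.12, C1qa at 6.17 against 6.75 and Vcam1 at 6.40 against 7.15. Ly6c2 went the other way, at 6.58 in CD24 DC against 4.32 in CD172a DC, and Ccr2 (7.15 against 6.93) and Lyz2 (10.01 against 9.97) were close. Of the 14, 1 was called higher and 3 lower in CD24 DC. Their part in the lectin differences was not tested.

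**Figure D3:**
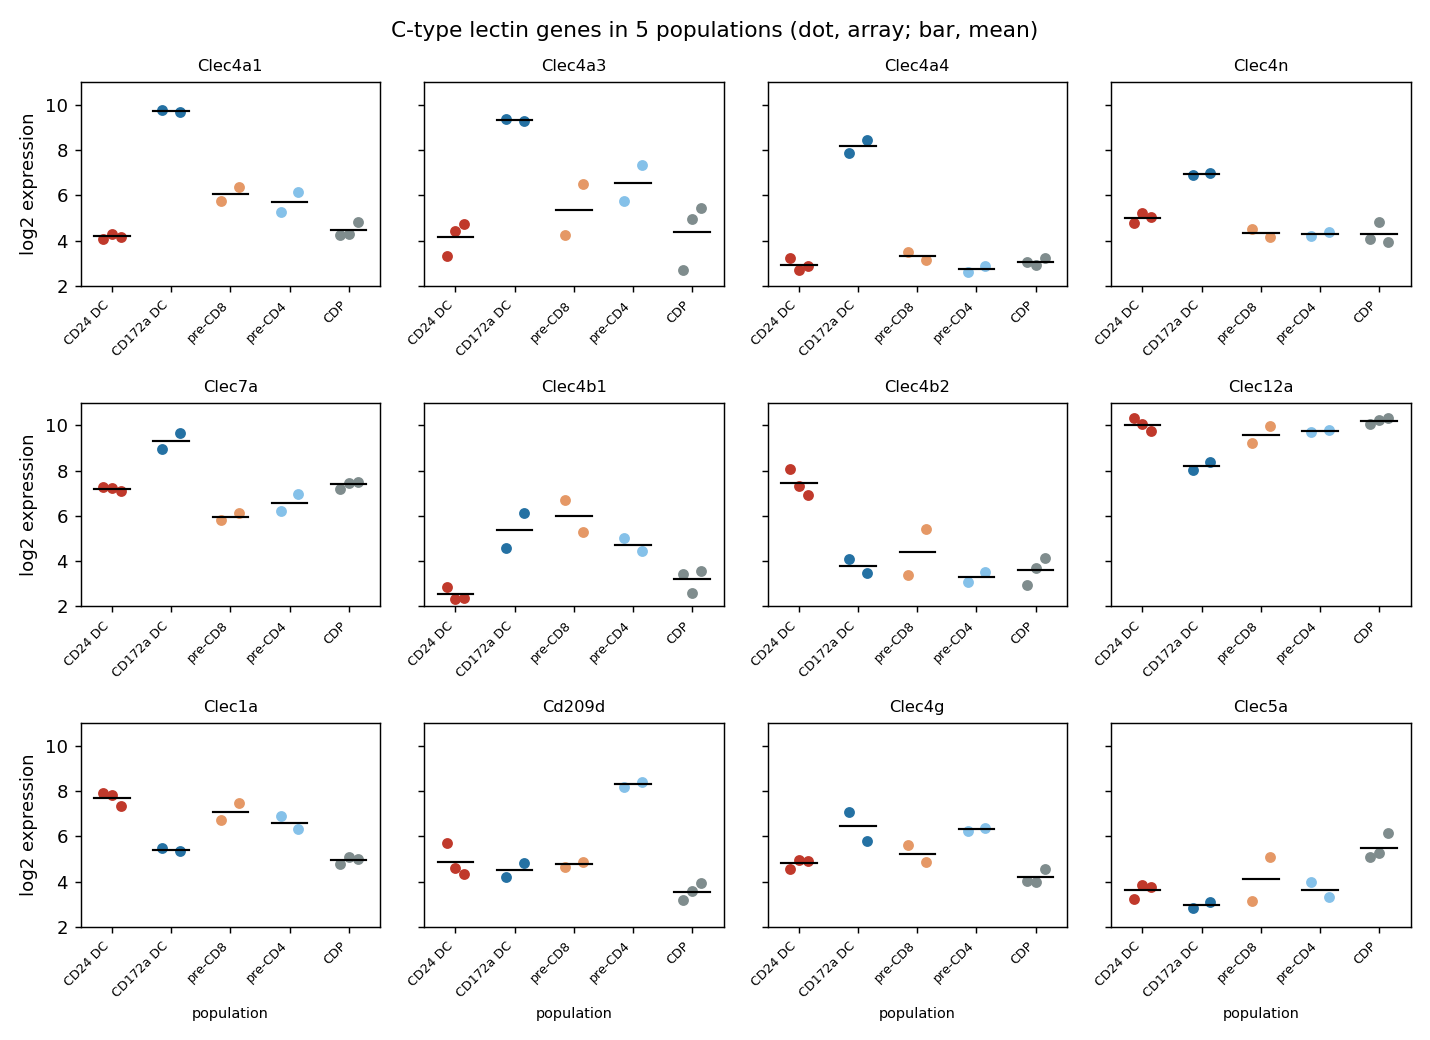
Log2 expression (vertical axis, 2 to 11) of 12 C-type lectin genes in the 5 populations (horizontal axis); dots are arrays and bars are means. Clec4a4 is high in CD172a DC alone, Clec4b2 in CD24 DC and Cd209d in pre-CD4.

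CD172a DC and its marrow progenitor pre-CD4 differed in the DCIR and Dectin genes and in Cd209d. Compared with pre-CD4, 7 of the 37 genes were higher and 6 lower in CD172a DC, against 4.70% higher and 8.02% lower (12.7% in all) among all genes. The 13 calls became 6 without pre-CD4 array 1 and 8 without CD172a DC array 1. Markers of plasmacytoid DCs were lower in CD172a DC for 5 of 10 and higher for 1 (mean level 6.12 and 6.31 in CD172a DC, against 7.41 and 7.18 in pre-CD4). Monocyte and macrophage markers were higher for 5 and lower for 4 of 14 (7.20 on both CD172a DC arrays, against 7.34 and 7.48 in pre-CD4). Their part in the lectin differences was not tested. Clec4a4 was 5.42 ± 0.26 higher (adjusted p = 1.66e-07) and Clec4a1 4.06 ± 0.31 (adjusted p = 3.00e-06). Clec4a1 stood at 9.79 and 9.71 in CD172a DC, against 5.25 and 6.14 in pre-CD4. Clec7a stood at 8.97 and 9.67 in CD172a DC, against 6.21 and 6.96 in pre-CD4 (2.74 ± 0.29, adjusted p = 3.88e-05). Clec4n stood at 6.90 and 7.0 in CD172a DC, against 4.22 and 4.38 in pre-CD4 (2.64 ± 0.28, adjusted p = 4.21e-05). Lower in CD172a DC were Cd209d (-3.80 ± 0.39, adjusted p = 3.33e-05) and Clec12a (-1.54 ± 0.27, adjusted p = 0.00208). These 6 calls held under all alternatives in which the gene was tested.

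The other 7 calls of this comparison were less firm. Of their genes, Clec1b, Clec10a, Clec4d and Cd209e had no population mean above the level of the sensory receptor genes. Clec4a3 was 2.78 ± 0.85 higher in CD172a DC (adjusted p = 0.0483), and its call ended without CD172a DC array 1 or 2, CD24 DC array 2 or 3, CDP array 2 or pre-CD4 array 1 (adjusted p = 0.0542 to 0.370). Clec1b, which encodes CLEC-2, the podoplanin receptor of platelets and DCs, stood at 4.43 and 5.67 in CD172a DC, against 3.65 and 3.47 in pre-CD4 (1.49 ± 0.34, adjusted p = 0.0114). Without CD172a DC array 2 it differed by 0.87 (adjusted p = 0.107), and without pre-CD4 array 1 or 2 the adjusted p was 0.0572 or 0.0683. The 5 measured markers of megakaryocytes and platelets had mean levels of 5.13 and 5.14 in CD172a DC and 4.88 and 4.94 in pre-CD4, and 1 of the 5 was called higher in CD172a DC. Pf4 stood at 3.71 in CD172a DC and 4.17 in pre-CD4, and Gp9 at 5.88 and 4.72. Their part in the Clec1b difference was not tested. Clec10a, the gene of a galactose-type lectin of macrophages and DCs, stood at 3.49 and 3.55 in CD172a DC, against 5.58 and 4.36 in pre-CD4 (-1.45 ± 0.33, adjusted p = 0.00977). It was not called without CD172a DC array 1 (adjusted p = 0.0701) or pre-CD4 array 1 (-0.84, adjusted p = 0.134). Clec1a differed by -1.20 ± 0.30 (adjusted p = 0.0165), a call that ended without CD172a DC array 1 or 2 or pre-CD4 array 1 (0.0769 to 0.195). The remaining calls were changes below 1 log2 unit, of Clec4d (0.74 ± 0.23, adjusted p = 0.0479), Cd209e (-0.89 ± 0.26, 0.0387) and Cd209c (-0.75 ± 0.23, 0.0447). Cd209e lost its call without CD172a DC array 1 or 2, CDP array 2 or pre-CD4 array 1 or 2 (0.0582 to 0.261). Clec4d lost it without any array other than CD172a DC 2 and CD24 DC 1 and 3 (adjusted p = 0.0617 to 0.375), its difference being 0.48 without CD172a DC array 1. Cd209c lost it without any array other than CD172a DC 1 and CD24 DC 1 and 3 (0.0557 to 0.285), its difference being -0.46 without CD172a DC array 2.

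On the other branch, CD24 DC differed from pre-CD8 in 4 of the 37 genes, 2 higher and 2 lower, against 2.65% higher and 3.66% lower (6.31% in all) among all genes. Neutrophil markers were lower in CD24 DC for 4 of 12, with mean levels of 4.81 to 6.38 in CD24 DC against 6.64 and 8.92 in pre-CD8. Markers of basophils, mast cells and eosinophils were lower for 4 of 9, with 3.98 to 4.41 in CD24 DC against 5.13 and 5.77 in pre-CD8. Their part in the lectin differences was not tested. Clec4b2 stood at 8.08, 7.30 and 6.92 in CD24 DC, against 3.36 and 5.44 in pre-CD8 (3.03 ± 0.52, adjusted p = 0.00254). The difference was 2.00 without pre-CD8 array 1 (adjusted p = 0.0491). Clec4b1 moved the opposite way, with 2.85, 2.33 and 2.38 in CD24 DC against 6.69 and 5.27 in pre-CD8 (-3.46 ± 0.47, adjusted p = 4.29e-04). Clec4a1 was lower in CD24 DC, at 4.09 to 4.31 against 5.77 and 6.39 in pre-CD8 (-1.89 ± 0.28, adjusted p = 8.35e-04). Clec7a was 1.24 ± 0.26 higher in CD24 DC (adjusted p = 0.0105), a call that ended without pre-CD8 array 1 (0.162). Clec12a and Clec1a differed by 0.45 and 0.60 and were not called. Clec4a2 stood at 3.49 to 4.53 in CD24 DC, against 5.20 and 5.83 in pre-CD8 (-1.50 ± 0.44, adjusted p = 0.0651). With the array number as a replicate block it was called (-1.65, adjusted p = 0.0462), as it was without CD24 DC array 1 (0.0318) or CDP array 1 (0.00917).

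Against CDP, the pre-CD4 progenitor was marked by Cd209d, the gene of the mannose-binding lectin SIGNR3, a mouse relative of human DC-SIGN. Cd209d stood at 8.18 and 8.42 in pre-CD4, against 3.16, 3.56 and 3.93 in CDP (4.75 ± 0.36, adjusted p = 1.61e-05). In pre-CD8 it stood at 4.65 and 4.86, which is -3.55 ± 0.39 relative to pre-CD4 (adjusted p = 5.55e-04) and 1.2 ± 0.36 relative to CDP without a call (adjusted p = 0.0809). The spleen populations had 5.70, 4.60 and 4.33 in CD24 DC and 4.19 and 4.80 in CD172a DC, so the pre-CD4 arrays lay above all 10 others. In total 5 of the 37 genes were higher and 1 lower in pre-CD4 than in CDP, against 2.32% higher and 2.23% lower (4.54% in all) among all genes. Clec4g, the next gene of the set on chromosome 8 beside the Cd209 genes, stood at 6.25 and 6.37 in pre-CD4, against 4.01, 3.98 and 4.56 in CDP (2.13 ± 0.34, adjusted p = 0.00273). Both calls against CDP held under all alternatives, as did that of Cd209d between the progenitors.

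Cd209e, the gene of SIGNR4, was also higher than in CDP, at 5.09 and 4.84 in pre-CD4 against 3.94, 3.65 and 3.42 in CDP (1.29 ± 0.24, adjusted p = 0.00597), although all its levels lie in the range of the sensory receptor genes. Its call ended without pre-CD4 array 1 (0.0833). Of 10 markers of plasmacytoid DCs, 5 were called higher in pre-CD4 than in CDP and 0 lower. The 10 markers had mean levels of 7.41 and 7.18 in pre-CD4, against 5.81 to 6.07 in CDP, with 7 and 6 of the 10 above the level of the sensory receptor genes. Siglech stood at 8.29 in pre-CD4 against 6.17 in CDP, and Spib at 8.57 against 4.19. Pacsin1 (5.06 against 4.95) was close, and Cox6a2 (7.69 against 7.86) and Ccr9 (4.52 against 4.60) were slightly lower. Their part in the Cd209 differences was not tested.

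The Cd209 genes showed how much the choice of probe set matters. Cd209a, the closest mouse relative of human DC-SIGN in the usual naming, has 2 probe sets that list it alone. The one with the higher mean ranged from 6.90 to 7.74 on the 12 arrays, and no comparison called it (adjusted p = 0.814 to 1). The other, taken up after its values were seen, stood at 9.24 and 9.65 in pre-CD4, against 3.84, 4.64 and 5.23 in CDP. In a fit of all 23521 probe sets with a single symbol this was a difference of 4.87 ± 0.35 (adjusted p = 1.53e-05). By the same probe set Cd209a stood at 7.10 and 6.69 in pre-CD8, which was 2.33 ± 0.35 above CDP (adjusted p = 0.00145) and -2.55 ± 0.38 relative to pre-CD4 (adjusted p = 0.00614). In spleen it stood at 5.74, 5.42 and 4.97 in CD24 DC, against 7.78 and 7.47 in CD172a DC (-2.25 ± 0.35, adjusted p = 0.00171). In CD172a DC this was -1.82 ± 0.38 relative to pre-CD4 (adjusted p = 0.00682), and in CD24 DC -1.52 ± 0.35 relative to pre-CD8 (adjusted p = 0.0185). Cd209c, the gene of SIGNR2, has 2 probe sets as well. Its brighter one ranged from 7.64 to 8.78 on the 12 arrays, while the dimmer one stood at 5.96 and 5.50 in pre-CD4, against 4.33, 4.26 and 4.15 in CDP (1.48 ± 0.20, adjusted p = 8.87e-04). The dimmer probe set was also -0.99 ± 0.20 in CD24 DC relative to CD172a DC (adjusted p = 0.00984), but it did not share the call of the brighter one in CD172a DC against pre-CD4 (-0.25 ± 0.22, adjusted p = 0.510). Cd209b, the gene of the marginal zone macrophage lectin SIGNR1, stayed between 3.38 and 4.32 on the 12 arrays, and Cd209g between 3.97 and 5.18.

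**Figure D4:**
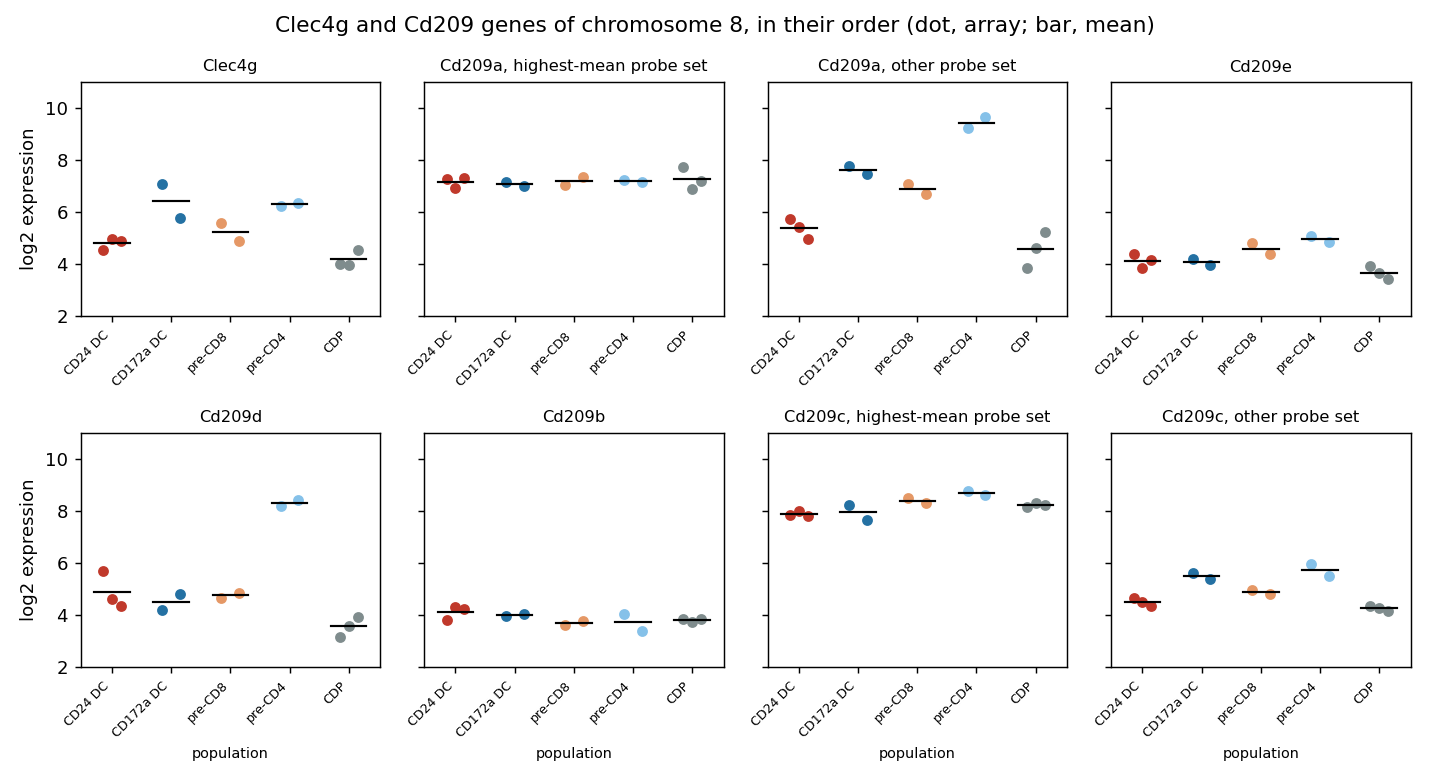
Log2 expression (vertical axis, 2 to 11) in the 5 populations of Clec4g and the Cd209 genes in their order on chromosome 8, with both probe sets of Cd209a and Cd209c; dots are arrays and bars are means. Cd209d and the lower-mean probe set of Cd209a are highest in pre-CD4, while the highest-mean probe set of Cd209a is level near 7.

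Promoter sequences from RefSeq (GRCm38.p6) were available for 31 of the 37 genes, as windows from 250 bases before to 50 after each annotated start. They were searched on both strands for 5 motifs, chosen with the expression values known. The ETS-IRF composite, GGAA followed after 2 bases by GAAA, through which PU.1 binds with IRF4 or IRF8, was in the windows of 6 of the 31 genes (19.4%), against 3.16% of all 27025 genes. The 6 were Cd209a, Cd209d, Cd209e, Clec2i, Clec4a1 and Clec7a. The interferon response core, GAAA followed after 2 bases by GAAA, was in 9.68% of the members and 3.99% of all genes, the AP-1 site TGANTCA in 22.6% and 8.97%, the Runx site TGTGGT in 25.8% and 18.9%, and the PU.1 site GAGGAAGT in none of the members and 3.69% of all genes. The composite and the interferon core can overlap at GAAA, and copies that arose by duplication are not independent. A match is a run of letters and no shown binding site. The windows of 5 of these 6 genes are shown as examples of the composite, chosen because they hold it, and not all genes with the same expression pattern do. Of the genes with a window that were higher in pre-CD4 than in CDP, Cd209a (by its second probe set), Cd209d, Cd209e and Clec4a1 hold it, and Cd209c (by its second probe set) and Clec4g do not. Of those with a window that were higher in CD172a DC than in CD24 DC, Clec4a1, Clec7a and Clec2i hold it. Cd209a (by its second probe set) holds it too. Clec4a3, Clec4b1, Clec4g and Cd209c (by its second probe set) do not. The windows shown lie at chr8:3748935-3749234 (strand minus) for Cd209a, chr8:3878450-3878749 (strand minus) for Cd209d and chr8:3854237-3854536 (strand minus) for Cd209e. Those of Clec4a1 and Clec7a lie at chr6:122921598-122921897 (strand plus) and chr6:129472730-129473029 (strand minus). Each is printed 5′ to 3′ in the direction of the gene, and capitals mark the composite, read on the other strand.
Cd209a: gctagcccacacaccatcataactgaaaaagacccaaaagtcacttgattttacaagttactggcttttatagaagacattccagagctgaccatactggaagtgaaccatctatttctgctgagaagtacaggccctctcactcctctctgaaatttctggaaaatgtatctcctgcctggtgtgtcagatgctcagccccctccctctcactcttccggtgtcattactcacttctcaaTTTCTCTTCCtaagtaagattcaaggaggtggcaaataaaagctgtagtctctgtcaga
Cd209d: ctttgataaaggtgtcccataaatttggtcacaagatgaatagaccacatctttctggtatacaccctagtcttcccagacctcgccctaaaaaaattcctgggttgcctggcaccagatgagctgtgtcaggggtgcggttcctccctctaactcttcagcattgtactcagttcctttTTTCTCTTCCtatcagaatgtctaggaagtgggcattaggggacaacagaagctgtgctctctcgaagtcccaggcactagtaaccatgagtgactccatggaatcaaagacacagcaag
Cd209e: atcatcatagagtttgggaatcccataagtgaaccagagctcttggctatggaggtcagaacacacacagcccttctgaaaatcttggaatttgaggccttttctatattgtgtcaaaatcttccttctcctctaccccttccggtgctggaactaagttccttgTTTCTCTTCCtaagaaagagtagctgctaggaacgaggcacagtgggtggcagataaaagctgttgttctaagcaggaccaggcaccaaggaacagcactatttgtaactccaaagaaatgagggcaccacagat
Clec4a1: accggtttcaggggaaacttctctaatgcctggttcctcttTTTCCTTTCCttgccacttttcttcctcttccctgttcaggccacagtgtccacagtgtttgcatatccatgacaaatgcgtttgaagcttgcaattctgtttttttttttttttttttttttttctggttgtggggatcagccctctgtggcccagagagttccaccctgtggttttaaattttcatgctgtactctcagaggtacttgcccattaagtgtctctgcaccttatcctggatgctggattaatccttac
Clec7a: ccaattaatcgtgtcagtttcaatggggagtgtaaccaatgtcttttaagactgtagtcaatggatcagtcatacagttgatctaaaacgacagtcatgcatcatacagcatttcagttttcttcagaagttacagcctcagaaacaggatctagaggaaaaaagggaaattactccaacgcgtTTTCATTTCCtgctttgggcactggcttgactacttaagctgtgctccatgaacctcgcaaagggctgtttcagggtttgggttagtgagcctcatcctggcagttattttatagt
The 3 Cd209 windows hold the same 10 letters, TTTCTCTTCC, starting 9 bases before the annotated start in Cd209a, 70 in Cd209d and 85 in Cd209e. Identity between these windows was 54.9% for Cd209d with Cd209e, 46.0% for Cd209a with Cd209e and 45.5% for Cd209a with Cd209d, where Cd209g with Clec4b2, from different families, had 49.1%. In Clec4a1 the run starts 209 bases before the start, and in Clec7a 66 bases before it.

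Clec1a, Clec4a1 and Clec5a made up the rest of the pre-CD4 calls against CDP. Clec1a stood at 6.90 and 6.31 in pre-CD4, against 4.77, 5.08 and 4.99 in CDP (1.66 ± 0.27, adjusted p = 0.00299). Clec4a1 stood at 5.25 and 6.14 in pre-CD4, against 4.27, 4.29 and 4.82 in CDP (1.23 ± 0.28, adjusted p = 0.0228). Clec5a, which encodes the DAP12-coupled receptor MDL-1 of monocytes and neutrophils, was the single gene that fell, with 3.96 and 3.29 in pre-CD4 against 5.10, 5.26 and 6.13 in CDP (-1.87 ± 0.46, adjusted p = 0.0359). Of 12 neutrophil markers, 5 were called lower in pre-CD4 than in CDP and 0 higher. Their mean level was 6.26 and 6.44 in pre-CD4 and 7.41 to 8.63 in CDP. In each, 11 of 12 were above the level of the sensory receptor genes. Mpo stood at 7.42 in pre-CD4 against 12.33 in CDP, S100a9 at 8.40 against 8.77 and Cxcr2 at 5.64 against 6.12. Retnlg went the other way, at 5.15 against 3.92. Their part in the Clec5a difference was not tested. Without pre-CD4 array 1 the adjusted p of Clec1a was 0.0580. Clec4a1 lost its call without CDP array 1 (0.0867), CDP array 2 (0.0847) or pre-CD4 array 2 (0.79, adjusted p = 0.319), and Clec5a lost it without any CDP, pre-CD4 or CD172a DC array or CD24 DC array 2 (0.0517 to 0.305). Clec4a3 stood at 5.74 and 7.34 in pre-CD4, against 2.72, 4.97 and 5.45 in CDP, and was called with the array number as a replicate block (2.57, adjusted p = 0.00559) but not without it (2.16 ± 0.78, adjusted p = 0.171).

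The pre-CD8 progenitor was higher than CDP in 4 of the 37 genes and lower in 1, against 2.29% higher and 2.47% lower (4.77% in all) among all genes. Clec1a stood at 6.70 and 7.46 in pre-CD8, against 4.77 to 5.08 in CDP (2.14 ± 0.27, adjusted p = 3.58e-04), and this call held under all alternatives. Clec4b1 stood at 6.69 and 5.27 in pre-CD8, against 3.41, 2.59 and 3.56 in CDP (2.79 ± 0.47, adjusted p = 0.00314). Clec4a1 stood at 5.77 and 6.39 in pre-CD8, a difference of 1.62 ± 0.28 (adjusted p = 0.00371), and Cd209e at 4.81 and 4.38, a difference of 0.92 ± 0.24 (adjusted p = 0.0404). Clec7a fell to 5.81 and 6.11 in pre-CD8, against 7.20, 7.45 and 7.51 in CDP (-1.43 ± 0.26, adjusted p = 0.00553). Without pre-CD8 array 1 the calls of Clec4b1 (0.0585) and Clec7a (0.0764) ended, without pre-CD8 array 2 that of Clec4a1 (0.0727), and that of Cd209e ended without either array of CD172a DC, pre-CD8 or pre-CD4 and without CDP array 2 or 3 (0.0532 to 0.329). The pre-CD8 and pre-CD4 comparisons share the CDP arrays. With the array number as a replicate block, Clec4e was also lower than in CDP in pre-CD8 (-1.21, adjusted p = 0.0240) and in pre-CD4 (-1.23, 0.0230), and Clec2d, which encodes the Nkrp1 ligand Clr-b, was lower in pre-CD8 (-1.16, 0.0450). Without the block these were -1.03 ± 0.33, -1.05 ± 0.33 and -1.0 ± 0.33, with adjusted p of 0.111, 0.107 and 0.116.

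Between the progenitors few differences passed the threshold. Cd209d was the only one of the 37 called in pre-CD8 against pre-CD4, where 0.383% of all genes were higher and 0.320% lower (0.703% in all). Clec10a, at 3.52 and 3.79 in pre-CD8 against 5.58 and 4.36 in pre-CD4, was called only without pre-CD4 array 2 (-1.92, adjusted p = 0.0137), against -1.31 ± 0.33 with all arrays (adjusted p = 0.118). Clec4b2 stood at 3.36 and 5.44 in pre-CD8 against 3.10 and 3.50 in pre-CD4, Clec7a at 5.81 and 6.11 against 6.21 and 6.96, and Clec4a4 at 3.49 and 3.13 against 2.62 and 2.87.

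Whether the lineage difference was the same in spleen and in marrow was tested as (CD24 DC minus CD172a DC) minus (pre-CD8 minus pre-CD4). It was called for 6 of the 37 genes, 2 positive and 4 negative, against 0.500% and 0.532% of all genes (1.03% in all). Clec4a1 (-5.94 ± 0.42, adjusted p = 2.10e-05) and Clec4a4 (-5.79 ± 0.36, 1.01e-05) differed between the lineages in spleen but were within 0.56 of each other in marrow. For Cd209d (3.93 ± 0.53, 0.00270) the difference lay in marrow. Clec4b1 (-4.09 ± 0.70, 0.0125) was 1.25 ± 0.52 in marrow, where it was not called, and -2.84 in spleen. Clec12a (1.99 ± 0.37, 0.0194) and Clec4n (-1.96 ± 0.38, 0.0248) differed in spleen and by -0.16 and 0.03 in marrow. The marrow means of Clec4a4 and Clec4n lay below the level of the sensory receptor genes, as did the spleen means of Clec4b1 and Cd209d. Calls were lost for Clec4b1 without pre-CD4 array 2 (0.0694), for Clec12a without CD172a DC array 1, pre-CD4 array 1 or 2 or pre-CD8 array 1 (0.0801 to 0.102), and for Clec4n without any CD172a DC or pre-CD4 array or pre-CD8 array 1 (0.0802 to 0.132). Clec1a (1.80 ± 0.40) missed the threshold at 0.0525, and Clec4a3 (-4.00 ± 1.15, 0.153) was called with the replicate block (-4.41, 0.00585).

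**Figure D5:**
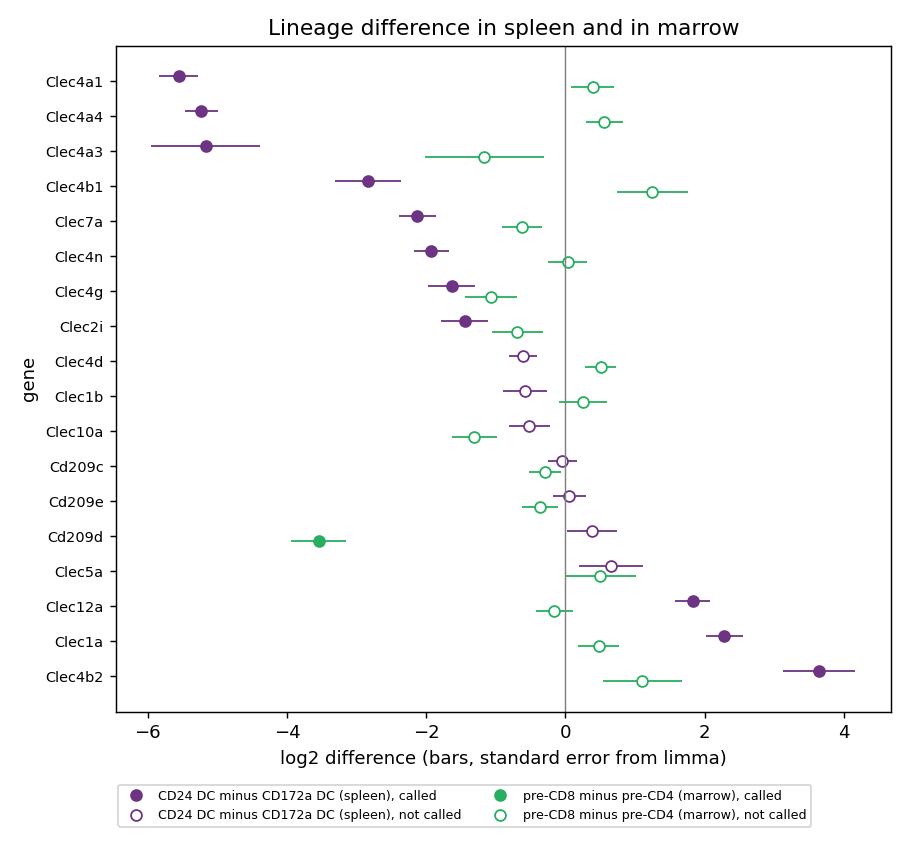
Log2 difference (horizontal axis, with standard error) between the lineages for the 18 genes called in at least 1 comparison (vertical axis), in spleen (CD24 DC minus CD172a DC, purple) and in marrow (pre-CD8 minus pre-CD4, green); filled points are called. In marrow Cd209d is the single filled point, and in spleen 11 genes are filled.

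By their highest-mean probe sets, the other 19 genes were called in none of the 6 comparisons. The range of their population means was 0.20 to 1.51 with a median of 0.51. The smallest range was that of Cd209a, whose other probe set was called in each of these comparisons, with means from 4.57 in CDP to 9.45 in pre-CD4. Cd209a is therefore not shown to be level. Of these, 12 had no mean above the level of the sensory receptor genes, among them Clec4e, Cd209b, Clec2g and Clec14a, a gene of endothelial cells. Clec2d was bright in all, at 9.70, 8.54 and 8.39 in CD24 DC, 7.99 and 8.17 in CD172a DC, 8.67 and 8.50 in pre-CD8, 9.02 and 8.51 in pre-CD4 and 9.53, 9.79 and 9.44 in CDP. Clec16a, whose protein works in endosomes and is no receptor, was 6.09, 6.30, 6.26, 6.66 and 6.04 on average in CD24 DC, CD172a DC, pre-CD8, pre-CD4 and CDP. By position, 23 of the 37 genes lie on chromosome 6 and 9 on chromosome 8, and the 18 called genes include 13 and 4 of these, beside Clec10a on chromosome 11.

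Of 25 genes listed for signalling below these receptors, 22 were measured. In CD24 DC against CD172a DC, 1 was higher and 4 lower, with a median difference of -0.19, where 5.59% of all genes were called. Syk, the kinase of the ITAM pathway, differed by -1.40 ± 0.18 (adjusted p = 4.47e-04), the partner chain gene Fcer1g by -1.96 ± 0.35 (0.00424), the paracaspase gene Malt1 by -1.48 ± 0.24 (0.00204) and the kinase gene Fgr by -1.43 ± 0.32 (0.0183), while the phosphatase gene Ptpn11 was 0.93 ± 0.19 higher (0.00938). In CD172a DC against pre-CD4, where 12.7% of all genes were called, 5 were higher and 4 lower. Higher were Malt1 (2.20 ± 0.26, adjusted p = 1.08e-04), Lcp2 (1.67 ± 0.26, 8.51e-04), Vav2 (1.13 ± 0.21, 0.00306), Syk (1.01 ± 0.20, 0.00457) and Hcst (1.00 ± 0.30, 0.0398). Lower were the adaptor gene Card9 (-1.63 ± 0.30, 0.00275), Prkcd (-1.30 ± 0.24, 0.00298), Ptpn11 (-1.18 ± 0.21, 0.00185) and Vav1 (-0.83 ± 0.23, 0.0321). In CD24 DC against pre-CD8 (6.31% of all genes called), 2 were higher and Fcer1g was lower (-2.30 ± 0.35, adjusted p = 0.00103). Against CDP, 4 were higher in pre-CD4 (4.54% of all genes called) and 2 higher and 1 lower in pre-CD8 (4.77%), the kinase gene Fyn and Nfatc2 being higher in both, at 1.70 ± 0.18 and 1.67 ± 0.20 in pre-CD4 and 1.36 ± 0.18 and 1.92 ± 0.20 in pre-CD8. In pre-CD8 against pre-CD4 only the adaptor gene Blnk was called (-1.70 ± 0.34, adjusted p = 0.0345). Medians of this list were 0.37 in pre-CD4 against CDP, 0.10 in pre-CD8 against CDP and -0.38 in pre-CD8 against pre-CD4, where those of all genes were 0.02, 0.03 and 0.01.

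Among 39 measured genes that encode C-type lectin domains under other names, 1 was higher and 4 lower in CD24 DC than in CD172a DC, where 5.59% of all genes were called. Ly75, which encodes the endocytic receptor DEC-205 of cDC1, was 2.74 ± 0.31 higher in CD24 DC (8.67 against 5.93, adjusted p = 1.37e-04). The NK-type receptor genes Klrd1 (6.03 against 9.97) and Klri2 (4.07 against 6.71) differed by -3.94 ± 0.56 and -2.64 ± 0.35 (adjusted p = 7.82e-04 and 4.93e-04). Also lower were the activation marker Cd69 (-2.39 ± 0.39, adjusted p = 0.00214) and the mannose receptor gene Mrc1 (-1.69 ± 0.36, 0.0127). The 8 measured NK cell markers had mean levels of 4.41 to 4.94 in CD24 DC and 5.05 and 4.62 in CD172a DC, with 1 of 8 above the level of the sensory receptor genes in each. Ly75 was also higher in CD24 DC than in pre-CD8 (2.31 ± 0.31) and in pre-CD8 than in pre-CD4 (2.04 ± 0.34, adjusted p = 0.0106). Klri1 was higher in both spleen populations than in their progenitors, by 3.83 ± 0.34 in CD24 DC against pre-CD8 and 4.66 ± 0.37 in CD172a DC against pre-CD4. In the list 5 were higher and 5 lower in pre-CD8 than in CDP (4.77% of all genes called) and 2 and 4 in pre-CD4 (4.54%), Cd69 (-3.15 ± 0.39 and -2.76 ± 0.39) being the largest fall in each.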

How the data were processed

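Per the labels' protocols, RNA of 5 sorted populations was amplified, labelled with biotin and put on Affymetrix arrays. The authors deposited 1 log2 value per probe set and array. How background was corrected and arrays were normalized is "not given in the sources used here", and no further normalization was applied. Of 35145 probe sets, 23521 list 1 gene symbol in the platform annotation, 1814 several and 9810 none. The highest-mean probe set stood for each of the 22180 genes, and all 37 members matched RefSeq symbols. One limma model (limma 3.58.1, R 4.3.3) with a mean per population was fitted to all 12 arrays, with Benjamini-Hochberg adjustment and a threshold of 0.05, and was tested on simulated data. Named are the members called in a comparison, those with disagreeing probe sets, and the Clec4a and Cd209 copies. The members, lists and tests were chosen with earlier results of these data known. Arrays share numbers across populations. Deviations from population means correlated at r = 0.102 to 0.421 between same-numbered arrays of CD24 DC, pre-CD8, pre-CD4 and CDP (13 pairs), and at -0.16 to 0.02 in pairs with CD172a DC (8 pairs). Pairing of the first 4 populations was read from these correlations, as the labels do not state it, and remains an assumption. Within pre-CD8 and within pre-CD4 the deviations of the arrays were exact opposites (r = -1.0), so some pairs repeat others. Both same-numbered pairs of pre-CD8 with pre-CD4 thus had r = 0.414. The correlations therefore cannot decide whether the arrays were paired. The main fit used no replicate block, and the fit with a block is given only as an alternative.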

Additional observations from a re-analysis of the deposited data

Results flagged for a closer look

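The lineage difference in spleen was set against that in marrow, as (CD24 DC minus CD172a DC) minus (pre-CD8 minus pre-CD4), and the interaction passed the threshold for 6 of the 37 genes (limma, adjusted over all genes). It was -5.94 for Clec4a1 (adjusted p = 2.10e-05), -5.79 for Clec4a4 (1.01e-05), -4.09 for Clec4b1 (0.0125) and -1.96 for Clec4n (0.0248), whose CD24 DC level was the lower one in spleen. It was 1.99 for Clec12a (0.0194), higher in CD24 DC in spleen, and 3.93 for Cd209d (0.00270), lower in pre-CD8 than in pre-CD4 in marrow.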

How the results depend on the processing

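Of the 46 calls, 25 held under every alternative in which the gene was tested and none changed direction. The number of genes called in pre-CD8 against CDP (5) was 3 with a filter on dim genes, 8 with array weights and 2 to 7 when single arrays were left out. In pre-CD4 against CDP (6) it was 10 with array weights and 3 to 7 without single arrays. In CD24 DC against pre-CD8 (4) it was 2 with the filter and 8 with array weights. The weighted fit rested mostly on CD24 DC array 2 for that population, with a weight of 6.63 against 0.36 and 0.31 for arrays 1 and 3. In CD172a DC against pre-CD4 (13) it was 8 without all arrays numbered 1 and 6 to 13 without single arrays. Without single arrays it was also 1 to 2 in pre-CD8 against pre-CD4 and 3 to 8 for the lineage difference. The filter left 16 of the 46 calls untested, and the cause of the other shifts was not tested. The share of all genes called under each alternative was not set beside these counts. A shift in them is thus not read as particular to the lectin genes. Quantile normalization ended 3 calls, those of Clec4d and Cd209c in CD172a DC against pre-CD4 and Cd209e in pre-CD8 against CDP. A fit of only the populations compared ended 6, limma's trended robust prior 2 and a fit of every probe set with 1 symbol 1. With the array number as a replicate block 11 genes were called between the spleen populations, 5 and 13 between CD24 DC or CD172a DC and its progenitor, 7 and 8 between pre-CD8 or pre-CD4 and CDP, 1 between the progenitors and 8 in the lineage difference. The block ended no call, and it added those given with the results and Clec1a in the lineage difference (1.88, adjusted p = 0.050). By its other probe set Cd209a changed sign, to 2.33 in pre-CD8 and 4.87 in pre-CD4 against CDP, -2.55 in pre-CD8 against pre-CD4 and -2.25 in CD24 DC against CD172a DC. With 2 or 3 arrays a population, a gene that missed the threshold is not shown to be level.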

Other observations

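The pre-CD8 arrays differed from each other in several members. Clec4a3 stood at 4.25 and 6.49, Clec4b2 at 3.36 and 5.44 and Clec5a at 3.16 and 5.10 on pre-CD8 arrays 1 and 2. The mean level of 12 neutrophil markers on the same arrays was 6.64 and 8.92. Its part in these values was not tested.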
